A study of Homo sapiens with 8 samples.

Results

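Small nucleolar RNAs (snoRNAs) and small Cajal body RNAs (scaRNAs) were examined in the long-RNA libraries of a study of a tRNA fragment. The genes were all rows of the count table named SNORA, SNORD or SCARNA with a number, and those with a summed count of at least 80 over the 8 libraries were taken as detected. Of 472 such rows, 152 were named as H/ACA snoRNAs, 296 as C/D snoRNAs and 24 as Cajal body RNAs. The genes were thus chosen by their summed count, and the rule kept 5 rows, all of them C/D: SNORD3A, SNORD3C, SNORD3B-1 and SNORD3B-2, which are gene copies of U3, and SNORD13, the gene of U13. The rule used the counts of all 8 libraries together, so the levels of the 5 genes are given as a description, while the contrast between the groups was not part of it.

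The tDR group was 4 libraries of HEK293 cells, a human line derived from embryonic kidney, transfected with a synthetic mimic of the 3′ tRNA-derived RNA (tDR) of tRNA-Asp-GTC. The scramble group was 4 libraries of the same line given a scrambled mimic. Each mimic was used at 50 nM with the lipid reagent Lipofectamine RNAiMax for 48 h, so every library comes from transfected cells, and the results hold for 1 cell line. Nothing in the labels tells whether the 4 libraries of a group are separate cultures, and the p-values then rest on a spread that may be technical. Totals ran between 5848305 and 9237986 counts in the tDR libraries and between 6536554 and 10557740 in the scramble libraries. All 7 marker genes of HEK293-like cells had counts, summing to 532 to 581 CPM (counts scaled to a common library size, in this paragraph by the total count and elsewhere by TMM) in tDR libraries and 581 to 629 CPM in scramble libraries. A list of 7 markers of blood, endothelium, hepatocytes and fibroblasts summed to 36.4 to 41.2 CPM in tDR libraries and 18.2 to 24.3 CPM in scramble libraries, with COL1A1 holding most of it and HBB at 1 count in all. Counts over 380 olfactory receptor genes, which kidney cells are not known to use, came to 0.0234 to 0.0263 CPM per kilobase in tDR libraries and 0.0135 to 0.0179 CPM per kilobase in scramble libraries. At that density such counts would make up at most 0.121% of the counts of any of the 5 snoRNA genes.

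snoRNAs guide the chemical modification and processing of other RNAs. C/D snoRNAs carry the C and D box motifs, are bound by FBL, NOP56, NOP58 and SNU13, and most of them direct ribose methylation of ribosomal RNA. H/ACA snoRNAs end in an ACA triplet, are bound by DKC1, NHP2, NOP10 and GAR1, and direct pseudouridylation. Cajal body RNAs carry 1 or both kinds of motif and act on spliceosomal RNAs. U3 is an exception among C/D RNAs, since it pairs with the precursor of ribosomal RNA and is needed for the early cleavages that release the small-subunit RNA, and U13 assists the acetylation of the small-subunit RNA. Most human snoRNAs are cut out of introns of host genes, whereas U3 and U13 are transcribed from promoters of their own.

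The U3 copies lie in the GENCODE annotation of GRCh38 as a pair of tail-to-tail neighbours and a second such pair. SNORD3B-1 (ENSG00000265185.5, chr17:19061912-19062669, plus strand) and SNORD3B-2 (ENSG00000262074.6, chr17:19063346-19064136, minus strand) have 676 bases between them. SNORD3A (ENSG00000263934.4, chr17:19188016-19188714, plus strand) and SNORD3C (ENSG00000264940.4, chr17:19189665-19190245, minus strand) have 950 bases between them, and the 4 genes together cover 128334 bases. None of the 4 overlaps another annotated gene. Their gene models of 699, 581, 758 and 791 bases for SNORD3A, SNORD3C, SNORD3B-1 and SNORD3B-2 each hold short transcripts of the U3 RNA itself, the shortest of 217 bases. These sequences are shown because their likeness limits how counts can be told apart between copies. Capitals in SNORD3A mark the C box (NTGATGA, where N is any base) and the last CTGA, the D box, and capitals in the other copies mark the base that differs from SNORD3A.
SNORD3A: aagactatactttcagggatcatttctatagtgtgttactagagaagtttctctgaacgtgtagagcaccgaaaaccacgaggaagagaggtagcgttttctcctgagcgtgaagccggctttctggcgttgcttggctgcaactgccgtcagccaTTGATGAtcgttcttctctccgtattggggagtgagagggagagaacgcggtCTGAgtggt
SNORD3C: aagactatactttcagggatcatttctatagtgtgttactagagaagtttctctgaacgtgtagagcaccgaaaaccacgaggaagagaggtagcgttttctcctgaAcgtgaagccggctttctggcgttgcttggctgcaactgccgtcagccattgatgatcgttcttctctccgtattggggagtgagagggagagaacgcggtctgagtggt
SNORD3B-1: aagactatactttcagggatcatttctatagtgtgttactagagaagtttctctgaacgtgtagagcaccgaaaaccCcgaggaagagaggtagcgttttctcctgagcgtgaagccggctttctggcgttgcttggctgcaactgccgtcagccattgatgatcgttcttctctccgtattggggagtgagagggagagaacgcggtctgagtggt
The 217 bases of SNORD3B-2 were identical to those of SNORD3B-1. SNORD3C differed from SNORD3A by G108A alone, and both SNORD3B genes differed from it by A78C alone, with positions counted from 1 at the 5′ end and the base of SNORD3A first. Identity was therefore 99.54% between SNORD3A and either SNORD3C or SNORD3B-1, and 99.08% between SNORD3C and SNORD3B-1. Another copy with its own gene name, SNORD3D, differed from SNORD3A by A4G, C53T and A78C and was at 0 counts in every library.

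The copies share most of the short stretches a sequencing read could cover. Within the 217 bases, 20 of 168 windows of 50 bases in SNORD3A and 50 of 168 in SNORD3C were found in none of the other 4 copies, while SNORD3B-1 and SNORD3B-2 had 0 such windows each. Over the whole gene models, which add flanking sequence, the share of private 50-base windows was 7.08% for SNORD3A, 9.4% for SNORD3C, 30.5% for SNORD3B-1 and 25.5% for SNORD3B-2. With windows of 100 bases it was 24.5%, 20.7%, 53.6% and 47% for the same genes in that order. No source used here says how reads matching more than 1 copy were counted, and the split of counts between U3 copies is therefore uncertain.

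The motifs of the classes were searched in the annotated sense sequences only, of 275 C/D, 142 H/ACA and 24 Cajal body genes. NTGATGA anywhere together with CTGA in the last 20 bases was found in 75.3% of C/D sequences, 0% of H/ACA sequences and 29.2% of Cajal body sequences. ACA within the last 8 bases was found in 5.09% of C/D, 90.8% of H/ACA and 70.8% of Cajal body sequences. All 5 detected genes held both C/D motifs. The names of the classes and their sequences thus went together in the annotation, although a match is a description and not a tested site.

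The table held counts for very few of the 472 genes. In all 8 libraries 457 of them (96.8%) were at 0, and 15 (3.18%) had at least 1 count. The 8 C/D genes with a count summed to 7643 counts in the tDR libraries and 9443 in the scramble libraries, nearly all of it from the 5 detected genes. As a share of all counts, C/D RNA took 0.0289%, 0.025%, 0.0267% and 0.0234% in tDR libraries 1 to 4, against 0.0209%, 0.0237%, 0.0315% and 0.0325% in scramble libraries 1 to 4. The means were 0.026% ± 0.00233 in tDR libraries and 0.0271% ± 0.00575 in scramble libraries (SD, n = 4 each), and the groups overlapped. Scramble libraries 3 and 4 held the highest shares and scramble library 1 the lowest.

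The 7 H/ACA genes with a count summed to 20 counts in the tDR libraries and 17 in the scramble libraries. In single libraries H/ACA counts were 3, 4, 6 and 7 in tDR libraries 1 to 4, against 8, 2, 2 and 5 in scramble libraries 1 to 4, too few for any comparison between the groups. All 24 Cajal body genes were at 0 in every library, which allows a share of up to 4.64e-06% of the 64650112 counts, for counting error only. The gene just inside the minimum of 80 was SNORD13 with 121 counts, followed by SNORD3B-2 with 833. Just outside it stood SNORA10B and SNORA70 with 12 counts each and SNORA48B with 7. No gene lay between 12 and 121 counts, so minimums of 40 and of 80 kept the same genes, and 160 removed SNORD13 alone.

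Whether a gene had any count went with its position in the annotation. Of the 472 rows, 441 were matched to GENCODE release 29 by symbol. Among them 415 overlapped another gene on the same strand, 267 within an intron alone and 148 reaching an exon of the host, and 3 of these 415 had a count. Of 11 rows that overlapped a gene on the opposite strand only, 1 had a count, and of 15 that overlapped no other gene, 9 had one. The classes differed in this position: all 24 Cajal body genes overlapped a gene on the same strand, and the genes free of any overlap included 7 H/ACA rows, of which 4 had a count, and 8 C/D rows, of which 5 had one. Having a count did not mean being well counted. These H/ACA rows summed to 23 counts over the 8 libraries, and the C/D rows to 16959, nearly all from the 4 U3 copies. The remaining 31 rows were not matched, and 2 of those had counts, 5 in all. SNORD118, the gene of the C/D RNA U8 needed for large-subunit RNA maturation, overlaps an exon of TMEM107 and was at 0, and so was SNORD3D, which overlaps an exon of AC007952.4.

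Other short genes also had counts mostly where they overlapped no other gene, though without the higher share seen for snoRNA genes on the opposite strand, which rests on 1 gene. Among other noncoding RNA genes of at most 300 bases, a count was present in 7 of 2331 that overlapped a gene on the same strand, 3 of 1025 that overlapped one on the opposite strand only and 538 of 1581 that overlapped none. Among processed pseudogenes of that length the numbers were 2 of 130, 1 of 176 and 155 of 322. Protein-coding genes, which are far longer, had a count in 82%, 85.2% and 94.6% of cases in the same order. The kit keeps strand information, per the labels' protocols, but neither the strand setting of the counting step nor its rule for overlapping features is named in any source used here. A 0 in this table for a gene inside another gene therefore sets no limit on the RNA itself, and the share given above for Cajal body RNAs limits counts assigned to them only.

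**Figure D1:**
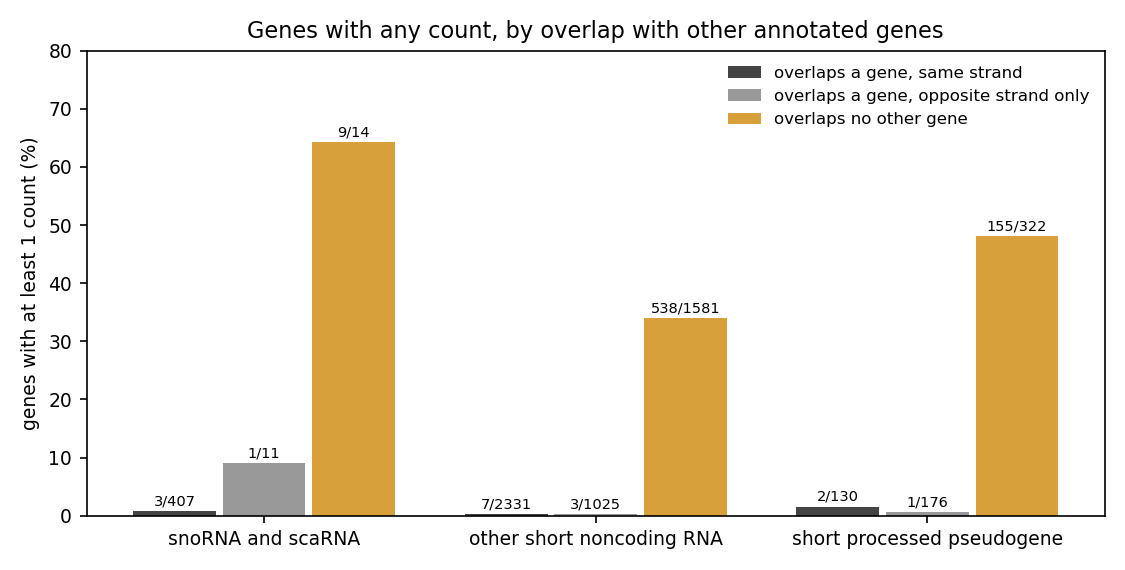
Bars show the percentage of genes with at least 1 count in any of the 8 libraries, for snoRNA and scaRNA genes, other noncoding genes of at most 300 bases and processed pseudogenes of that length, by overlap with another annotated gene; numbers above the bars are genes with a count over all genes of that kind with 1 annotated position. Genes that overlap no other gene had a count in 64.3%, 34% and 48.1% of cases, against at most 9.09% in any other bar. A single count sufficed, so the bars do not show how well a gene was counted.

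SNORD3A was the most abundant of the detected genes and its groups overlapped. It had 203, 185.3, 183.8 and 168.3 CPM in tDR libraries 1 to 4, against 149.8, 179.8, 236.9 and 247.6 CPM in scramble libraries 1 to 4. All 4 tDR libraries lay above scramble library 1 and below scramble libraries 3 and 4. The means were 185.1 ± 14.2 CPM in tDR libraries and 203.5 ± 46.6 CPM in scramble libraries (SD, n = 4 each), a log2 fold change of tDR over scramble of -0.14 ± 0.08 (SE, adjusted p = 0.18). The edgeR interval of this difference was -0.29 to 0.01, and its SE was smaller than that of DESeq2, which gave -0.17 ± 0.17 (adjusted p = 0.536).

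SNORD3A was called lower, at an adjusted p under 0.05, without scramble library 1 (log2 fold change -0.27, adjusted p = 0.000484) and without scramble library 2 (-0.20, adjusted p = 0.034). It was also called lower when no filter on low counts was used (-0.17, adjusted p = 0.0195), and under none of the other 10 alternatives tried. These 2 scramble libraries were the lowest of their group for SNORD3A. With no filter all 8 libraries were in the fit, and the SE was 0.0543 against 0.0758 in the main test. The call thus depended on the scramble libraries used and on the filter.

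SNORD3C had 44.53, 26.43, 32.14 and 24.53 CPM in tDR libraries 1 to 4, against 23.32, 24.22, 43.86 and 39 CPM in scramble libraries 1 to 4. The groups covered nearly the same range, with tDR library 1 and scramble libraries 3 and 4 high. The means were 31.91 ± 9.01 CPM in tDR libraries and 32.6 ± 10.4 CPM in scramble libraries, and the log2 fold change was -0.04 ± 0.14 (SE, 95% interval -0.31 to 0.23, adjusted p = 0.859). The sign of this difference turned in some alternatives, reaching 0.10 when 1 library was left out.

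SNORD3B-1 had 24.04, 21.91, 27.99 and 22.33 CPM in tDR libraries 1 to 4, against 24.19, 25.93, 29.88 and 31.92 CPM in scramble libraries 1 to 4. Of the tDR libraries, 3 lay below every scramble library, and tDR library 3 lay above scramble libraries 1 and 2. The log2 fold change was -0.22 ± 0.11 (SE, 95% interval -0.44 to 0.00, adjusted p = 0.146).

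SNORD3B-2 had 12.7, 10.13, 14.26 and 9.437 CPM in tDR libraries 1 to 4, against 14.78, 12.23, 13.03 and 16.4 CPM in scramble libraries 1 to 4. As with SNORD3B-1, tDR library 3 was the highest and scramble library 4 the highest of the other group. The log2 fold change was -0.30 ± 0.15 (SE, 95% interval -0.61 to 0.01, adjusted p = 0.155). The identical U3 sequence of these 2 genes and their shared libraries mean that their values are not separate evidence.

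SNORD13 (ENSG00000239039.1, chr8:33513475-33513578, plus strand, 104 bases) lies inside TTI2, a gene on the opposite strand that encodes a partner of TELO2, and overlaps an exon of it near its 5′ end. It had 9, 8, 8 and 19 counts in tDR libraries 1 to 4, against 18, 16, 21 and 22 counts in scramble libraries 1 to 4. This came to 1.524, 1.096, 1.037 and 1.992 CPM in tDR libraries, against 1.971, 1.957, 3.337 and 2.161 CPM in scramble libraries. Only tDR library 4 reached the scramble range, where it stood just above scramble libraries 1 and 2, and scramble library 3 stood apart at the top. The means were 1.412 ± 0.443 CPM in tDR libraries and 2.356 ± 0.66 CPM in scramble libraries (SD, n = 4 each), a log2 fold change of -0.69 ± 0.38 (SE, 95% interval -1.46 to 0.07, adjusted p = 0.186). TTI2 itself averaged 12.38 ± 2.19 CPM in tDR libraries and 13.78 ± 2.24 CPM in scramble libraries (log2 fold change -0.14, adjusted p = 0.535). Since the counting strand is not given, reads of the 2 genes cannot be told apart where they overlap.

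None of the 5 genes passed the edgeR quasi-likelihood test with Benjamini-Hochberg adjustment over 17184 genes, and 0 had an unadjusted p under 0.05. DESeq2 also called 0 of the 5, with 0 at an unadjusted p under 0.05. Over all genes tested, 24.3% were called, 11.4% lower and 12.8% higher in tDR libraries, 35.9% had an unadjusted p under 0.05, and DESeq2 called 19.6%. All 5 fold changes were negative, with a median log2 of -0.22 beside 0.02 over all genes tested. The 4 U3 copies are nearly identical and were counted in the same libraries, so the 5 signs are not separate evidence. That of SNORD3C also turned under 6 of 13 alternatives. Among all genes at 100 CPM or more, where SNORD3A lies, 38.2% were called lower and 4.04% higher. Between 10 and 100 CPM, where the other U3 copies lie, the shares were 11.6% and 11.1%. Below 10 CPM, where SNORD13 lies, 0.697% were called lower and 18.2% higher. The intervals of SNORD3A, SNORD3B-1 and SNORD3B-2 ended at most 0.01 above 0, and a missed threshold does not show that the groups were alike.

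**Figure D2:**
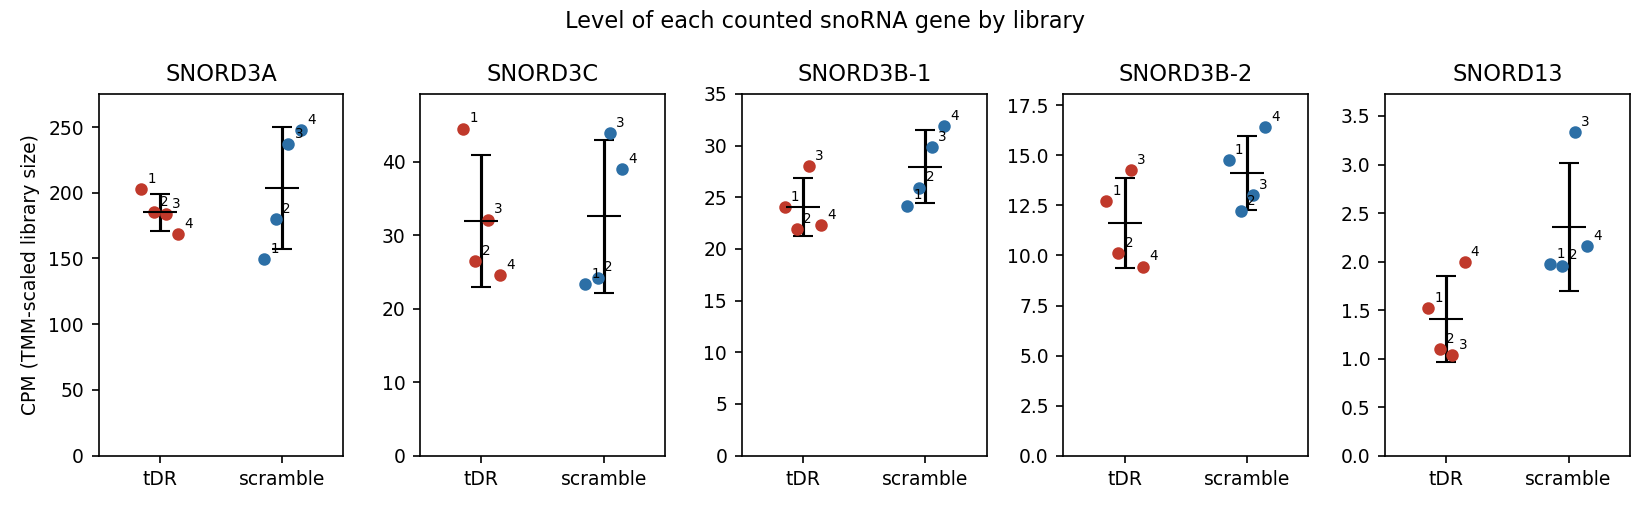
Each panel shows 1 detected snoRNA gene, with its level in CPM on a linear axis for the 4 tDR libraries (red, left) and the 4 scramble libraries (blue, right), numbered by replicate; bars are the mean and SD. In every panel the groups overlap, and scramble libraries 1 and 2 lie below scramble libraries 3 and 4 for SNORD3A, SNORD3C and SNORD3B-1.

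Per kilobase of gene model, the order of mean levels was the same for the U3 copies in both groups. SNORD3A stood at 265 CPM per kilobase in tDR libraries and 291 in scramble libraries, and its lowest library, at 214.2, was far above every library of the other U3 copies. SNORD3C followed at 54.9 in tDR libraries and 56.1 in scramble libraries, and SNORD3B-1 at 31.8 in tDR libraries and 36.9 in scramble libraries. These 2 neighbours did not separate in every library, since SNORD3C came down to 40.13 and SNORD3B-1 went up to 42.12 CPM per kilobase. SNORD3B-2 had 14.7 in tDR libraries and 17.8 in scramble libraries. SNORD13 had 13.6 in tDR libraries and 22.7 in scramble libraries. Its model has 104 bases, while the models of the U3 copies have 581 to 791 bases for an RNA of 217 bases. The scaling thus lowers the U3 copies relative to SNORD13, and SNORD13 was not ranked against them. Among the 17184 genes tested, CPM placed SNORD3A at percentile 94.3, SNORD3C at 59.8, SNORD3B-1 at 55.5, SNORD3B-2 at 43.4 and SNORD13 at 10.

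The 4 U3 copies together came to 284.3, 243.8, 258.2 and 224.6 CPM in tDR libraries 1 to 4, against 212, 242.2, 323.7 and 334.9 CPM in scramble libraries 1 to 4. The means were 252.7 ± 25.1 CPM in tDR libraries and 278.2 ± 60.5 CPM in scramble libraries (SD, n = 4 each). The scramble libraries thus fell on both sides of the tDR libraries, and the spread within the scramble group was larger than the difference of the means.

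The means of the split of U3 counts among the copies were close in the groups, while single libraries varied. SNORD3A held 73.38% ± 2.45 of U3 counts in tDR libraries and 73% ± 1.64 in scramble libraries, with single libraries between 70.62% (Wilson 95% interval 68.56% to 72.61%, scramble library 1) and 76.01% (73.97% to 77.94%, tDR library 2). SNORD3C held 12.47% ± 2.254 in tDR libraries and 11.55% ± 1.496 in scramble libraries, with its highest share of 15.66% (14% to 17.48%) in tDR library 1 and its lowest of 10% (8.755% to 11.4%) in scramble library 2. SNORD3B-1 held 9.56% ± 1.06 in tDR libraries and 10.22% ± 1.02 in scramble libraries, and SNORD3B-2 held 4.59% ± 0.64 in tDR libraries and 5.24% ± 1.24 in scramble libraries. For SNORD3B-2 the highest share, 6.97% (5.919% to 8.191%) in scramble library 1, and the lowest, 4.026% (3.255% to 4.969%) in scramble library 3, stood in the same group. In each case the difference between the groups was smaller than the SD of at least 1 group. These intervals cover counting error only.

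**Figure D3:**
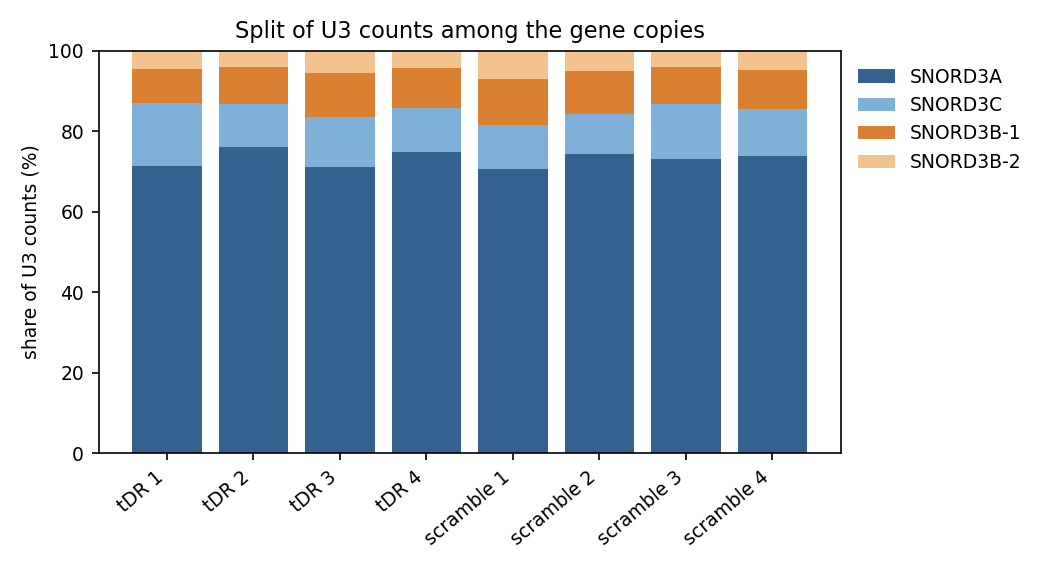
Stacked bars show the share of U3 counts (%) assigned to SNORD3A, SNORD3C, SNORD3B-1 and SNORD3B-2 in each of the 4 tDR libraries (left) and 4 scramble libraries (right). SNORD3A holds between 70.62% and 76.01% in every library, SNORD3B-2 has the lowest share in every library, and SNORD3B-1 lies above SNORD3C in scramble libraries 1 and 2.

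A list of 27 protein genes covered snoRNA particle proteins, their assembly and trimming factors, and proteins of Cajal bodies and cap formation. It also held SMNDC1, a spliceosome factor. Of the 27, all tested, 15 fell, SMNDC1 among them, and 0 rose in tDR libraries, and 12 did not pass the test. The median log2 fold change was -0.19, beside 0.02 over all genes tested. In those 15 every tDR library lay below every scramble library. Over all genes tested 10.8% had every tDR library below every scramble library, and 11.4% were called lower. By level, 10 of the 12 listed genes of 100 CPM or more fell, beside 38.2% of all genes at that level, and 5 of the 15 listed genes between 10 and 100 CPM fell, beside 11.6% of all genes there. The other-cell markers and the olfactory receptor genes, with the values given above, also differed between these groups. The olfactory receptor density was taken per kilobase of whole gene span, introns included, and subtracted from each gene by its span. Genes with a longer span thus lost more counts. After this step 11 of the 27 were lower and 0 higher, and the calls of NOP56, NAF1, SMN1 and PARN were lost. Fold changes also moved where almost nothing was subtracted. SNORD3A, with 0.00718% of its counts as such background, went from -0.14 to -0.09. Over all genes 1296 were then lower and 1308 higher, against 1962 and 2206 before. Why the calls were lost was not tested. The part of the other-cell markers was not tested.

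All 4 genes of the C/D core fell. FBL, the methyltransferase, had 136.6, 107.6, 124.9 and 107.7 CPM in tDR libraries 1 to 4, against 150.9, 145.1, 140.8 and 153.3 CPM in scramble libraries 1 to 4 (log2 fold change -0.32 ± 0.06, SE, edgeR adjusted p = 8.81e-05). NOP58, a scaffold protein, averaged 211.8 ± 4.29 CPM in tDR libraries and 265.9 ± 6.38 CPM in scramble libraries (-0.33 ± 0.05, edgeR adjusted p = 5.8e-07). Its scaffold partner NOP56 averaged 265.4 ± 15 CPM in tDR libraries and 290.9 ± 7.39 CPM in scramble libraries (-0.13 ± 0.05, edgeR adjusted p = 0.036). SNU13, which binds the box motifs and also takes part in the spliceosome, averaged 86.17 ± 6.53 CPM in tDR libraries and 101.2 ± 2.18 CPM in scramble libraries (-0.24 ± 0.06, edgeR adjusted p = 0.00376).

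Of the 4 genes of the H/ACA core, 2 fell. DKC1, the pseudouridine synthase, averaged 294.2 ± 18.4 CPM in tDR libraries and 351.8 ± 11.5 CPM in scramble libraries (log2 fold change -0.26 ± 0.05, edgeR adjusted p = 4.54e-05). NHP2 averaged 154 ± 10.7 CPM in tDR libraries and 202.7 ± 7.63 CPM in scramble libraries (-0.40 ± 0.05, edgeR adjusted p = 7.09e-08). NOP10 and GAR1 had log2 fold changes of -0.33 and -0.17 and were not called (edgeR adjusted p = 0.119 and 0.323). No H/ACA RNA had enough counts to set beside these proteins.

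Among 10 assembly factors 5 fell and 0 rose. RUVBL1, an ATPase of the assembly machinery that also serves chromatin complexes, averaged 192.9 ± 9.72 CPM in tDR libraries and 254.6 ± 5.45 CPM in scramble libraries (log2 fold change -0.40 ± 0.05, edgeR adjusted p = 1.24e-08). Its partner RUVBL2 differed by -0.19, the C/D assembly factor ZNHIT6 by -0.23 and the H/ACA assembly factor NAF1 by -0.19 on the log2 scale. The call of NAF1 was lost under 8 of 13 alternatives. NOLC1, a nucleolar and Cajal body chaperone of snoRNA particles, was the most abundant of the list at 476.8 ± 19.6 CPM in tDR libraries and 540.3 ± 15 CPM in scramble libraries (-0.18 ± 0.05, edgeR adjusted p = 0.00179).

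Of 6 genes of Cajal bodies and cap formation 3 fell. COIL, the scaffold protein of Cajal bodies, differed by -0.26 ± 0.07 (edgeR adjusted p = 0.00405) and SMNDC1, a spliceosome factor related to SMN, by -0.38 ± 0.08 (edgeR adjusted p = 0.000151). SMN1 differed by -0.43 ± 0.16 (edgeR adjusted p = 0.0448), but it shares nearly all of its sequence with SMN2, its count is uncertain and its call was lost under 11 of 13 alternatives. Of 3 enzymes that trim or tail these RNAs PARN fell, with a log2 fold change of -0.16 (edgeR adjusted p = 0.0279), and TENT4B had 0.15 (adjusted p = 0.0803).

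The count of calls in the list depended on the scaling. With library size alone as the scaling, 7 of the 27 were lower and 1, TENT4B, was higher at 0.24. Calls of 7 genes held under all 13 alternatives tried: DKC1, NHP2, FBL, NOP58, ZNHIT6, RUVBL1 and SMNDC1. Of the others that fell, RUVBL2, NOLC1 and COIL lost the call under 1 alternative each, SNU13 under 2, PARN under 3 and NOP56 under 4.

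Genes that host a snoRNA or scaRNA on the same strand could be compared between the groups, although none of the 5 detected genes has such a host. Of 190 host genes in the table, 177 had a count and 163 were tested. In tDR libraries 78 of these fell (47.9%) and 5 rose (3.07%), with a median log2 fold change of -0.14 and a median level of 154 CPM. For all genes at 100 CPM or more the shares were 38.2% lower and 4.04% higher. Between 10 and 100 CPM they were 11.6% and 11.1%, and over all genes tested 11.4% and 12.8%. The hosts were not split by level, and they include DKC1, NOP56 and NOP58 of the protein list above. Whether the RNAs of the genes lying inside those hosts differed could not be read from this table, because 412 of the 415 hosted genes were at 0.

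**Figure D4:**
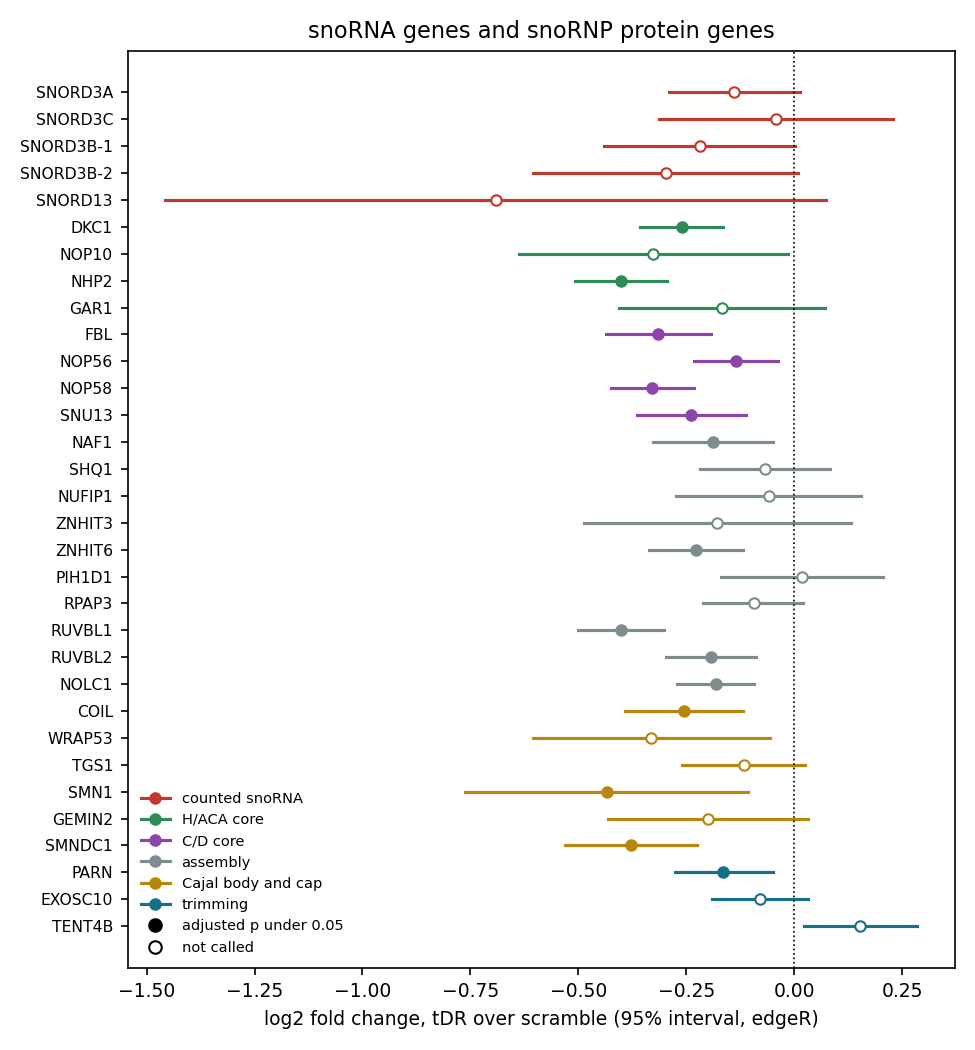
Points show the log2 fold change of tDR over scramble libraries from edgeR with its 95% interval, for the 5 detected snoRNA genes and 27 genes of snoRNA particles and Cajal bodies, coloured by group; filled points have an adjusted p under 0.05. The 15 filled points all lie below 0, and the 5 snoRNA genes are unfilled.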

How the data were processed

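The authors deposited 1 table of raw read counts per gene, with 1 column for each of 8 libraries. Per the labels' protocols, TRIzol RNA of HEK293 cells was made into libraries with a SMARTer Pico kit (v2) for stranded total RNA. The submitters' processing notes name featureCounts 2.0.2, STAR 2.7.8a, cutadapt 2.10, DESeq2 1.30.1 and FastQC 0.11.9, with the builds GRCh38.p13 and hg38. Strand setting, annotation release and the handling of multiply matching reads: not given in the sources used here.

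Positions, overlaps and transcript sequences came from GENCODE release 29 on GRCh38, matched by symbol, and coordinates are 1-based. Counts were tested in R 4.3.3 with edgeR 4.0.16 by its quasi-likelihood F test (TMM scaling, filterByExpr, group as the only term, all 8 libraries, Benjamini-Hochberg over 17184 genes). Genes with an adjusted p under 0.05 were called. The steps were tested on simulated data. Levels are CPM over TMM-scaled library sizes (mean ± SD, n = 4), and a fold change is log2 of tDR over scramble with its SE. No pair of libraries agreed within counting noise (lowest chi-square 2.13 per degree of freedom). It was 2.14 to 2.53 within the tDR group and 4 to 7.36 across the groups. Within the scramble group, pairs with scramble library 1 had 3.41 to 4.46 and the other pairs 2.13 to 3. Alternatives were DESeq2 1.42.0, library size alone, no filter, a replicate block, olfactory receptor background subtracted and each library left out.

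The detected genes, gene lists and tests were chosen with earlier results of these data known. Named were the detected genes, the 3 least counted of them, the 3 excluded genes with the most counts and the list of 27 protein genes. SNORD118, SNORD3D, TTI2 and genes overlapping them were named after their values were seen.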

Additional observations from a re-analysis of the deposited data

Results flagged for a closer look

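In 74 sets of 4 libraries, 2 held a library whose gap to the nearest other was large for the range of its group. Chance flags about 1 set in 20. SNORD13 stood at 3.337 CPM in scramble library 3, against 1.957 to 2.161 CPM in the other scramble libraries, with a gap of 0.852 of the range. Without that library the log2 fold change of SNORD13 was -0.52 (edgeR adjusted p = 0.409). SHQ1, an H/ACA assembly factor, stood at 54.8 CPM in scramble library 2, against 64.63 to 66.43 CPM in the other scramble libraries, with a gap of 0.845 of the range.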

How the results depend on the processing

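Of the 5 snoRNA genes, SNORD13, SNORD3B-1 and SNORD3B-2 kept a negative difference and no call under all 13 alternatives, and minimums of 40 and 160 counts also gave 0 calls. With no filter 1 snoRNA gene, SNORD3A, was lower. SNORD3C turned to 0.04 with library size alone and 0.00 with background subtracted. With library size alone SHQ1 turned to 0.02, NUFIP1 to 0.02 and EXOSC10 to 0.00, and PIH1D1, positive in the main test, had -0.02 with DESeq2 and -0.01 with no filter. Over all genes, against 1962 lower and 2206 higher, library size alone gave 907 lower, DESeq2 1441 higher, and background subtracted 1296 lower and 1308 higher. Of the calls 52.9% were higher, against 78.4% with library size alone and 39.8% with DESeq2. In the list of 27, library size alone gave 7 lower and 1 higher, and background subtracted 11 lower and 0 higher. The causes of these shifts were not tested.

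Leaving out 1 library at a time gave 1511 to 2109 genes lower and 1640 to 2200 higher, 0 to 1 snoRNA genes lower, 11 to 16 of the 27 lower and 0 to 1 higher. The median of the 5 snoRNA genes ran between -0.31 and -0.15, SNORD3C between -0.24 and 0.10 and PIH1D1 between -0.05 and 0.07. The C/D share of counts, tDR minus scramble, was -0.00114 percentage points and ran between -0.00324 and 0.000648, being positive without scramble library 3 or 4.

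Replicate numbers are shared by the groups, and the labels do not tell whether they mark pairs. Deviations of same-numbered libraries correlated at -0.01, 0.07, -0.029 and 0.019, beside -0.078 to 0.059 for libraries of unlike number. No pairing was seen, but correlations over genes with counting noise cannot exclude it. The replicate block gave 1834 genes lower and 2040 higher, 0 snoRNA genes called and 13 of the 27 lower, with NAF1 and SMN1 not called. SNORD13, with 121 counts in all, is limited by its depth.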

Other observations

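Small noncoding RNA genes of at most 350 bases with 1 annotated position were ranked by count, leaving out snoRNA and scaRNA genes. The 3 most counted, named after their values were seen, also overlapped no other annotated gene. RN7SL3, a gene of the signal recognition particle RNA, had 1166, 1058, 1062 and 1021 CPM in tDR libraries 1 to 4, against 1043, 1192, 1225 and 1303 CPM in scramble libraries 1 to 4 (log2 fold change -0.15 ± 0.05, SE, edgeR adjusted p = 0.0189). RNA5SP149 is named as a pseudogene copy of a ribosomal RNA. It had 235.2, 212.1, 277.1 and 211.8 CPM in tDR libraries 1 to 4, against 203.6, 136, 280.3 and 288.4 CPM in scramble libraries 1 to 4. Its log2 fold change was 0.044 ± 0.096 (SE, edgeR adjusted p = 0.78). RNA5SP389, another such pseudogene copy, had 222.8, 156.7, 231.8 and 225.3 CPM in tDR libraries 1 to 4, against 259, 158.2, 298.8 and 264 CPM in scramble libraries 1 to 4. The log2 fold change of RNA5SP389 was -0.225 ± 0.088 (SE, edgeR adjusted p = 0.0536). For RNA5SP149, as for the summed U3 copies, scramble libraries 3 and 4 lay above every tDR library and scramble library 1 below every tDR library. Scramble library 2 differed, lying below every tDR library for RNA5SP149 (136 CPM) but inside the tDR range for the summed U3 copies (242.2 CPM). For RNA5SP389 scramble libraries 1, 3 and 4 all lay above every tDR library, and for RN7SL3 scramble libraries 2, 3 and 4 did, with scramble library 1 inside the tDR range. Copies of these genes elsewhere in the genome make their counts uncertain.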
